A study of Mus musculus with 2 samples.

Results

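The 10 genes described here belong to the fibroblast growth factor (FGF) pathway: the receptors Fgfr1, Fgfr2 and Fgfr3, the ligands Fgf2, Fgf9 and Fgf18, and the feedback genes Spry1, Spry2, Dusp6 and Etv5. They were chosen by name, and all 10 of 10 were found among the 24866 genes of the deposited count table. The cells were isolated from femur of 2 littermates (C57/B6, postnatal day 6) with the genotype CTSK-cre+ mTMG, 1 plate per animal. Cre under the cathepsin K (Ctsk) promoter switches this reporter to membrane GFP in cells with present or past promoter activity and in their descendants. Every cell was sorted as CTSK-mGFP+, so there was no reporter-negative or untreated group, and a difference between animals cannot be told apart from one between plates. The comparisons are therefore between classes of cells within the 2 animals.

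FGFs are secreted proteins that bind receptor tyrosine kinases at the cell surface together with heparan sulfate, and the receptors pass the signal on mainly through the RAS, ERK and PI3K pathways. In the growing skeleton Fgfr3 is known for restraining chondrocyte proliferation in the growth plate, whereas Fgfr1 and Fgfr2 are known from mesenchyme, perichondrium and the osteoblast lineage. Fgf9 and Fgf18 act in limb and growth plate development, and the Sprouty proteins, the phosphatase Dusp6 and the ETS factor Etv5 are induced by ERK signalling, with the Sproutys and Dusp6 damping it.

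The kept cells numbered 318 in animal 1 and 335 in animal 2, with a median of 101207 and 119126 counts per cell. They were divided on marker genes, which included none of the 10, into 8 classes. Chondrocyte-like cells numbered 80 in animal 1 and 77 in animal 2, and periosteal fibroblast-like cells 73 and 78. Tendon and ligament-like cells numbered 33 and 25, and articular and synovial-like cells 13 and 32. Class 3 (55 and 91 cells) met no marker list. Class 4 (40 and 23 cells) was left unnamed. Its highest mean log2 ratio was that of the marrow stromal list (1.7), with 3 of 6 markers raised (Cxcl12, Lepr and Kitl). Among its top-ranked markers, however, 3 were osteoblast and 2 marrow stromal markers. Also raised were 4 of 18 osteoblast markers (Sp7, Runx2, Alpl and Mmp13, with a mean log2 ratio over the list of -1.28). The same held for 2 of 13 periosteal fibroblast markers (Postn and Aspn) and 1 of 8 osteoclast markers (Mmp9). Pericyte and smooth muscle-like cells (14 and 4) and osteoblast-like cells (10 and 5) were too few to test. The 9 macrophage markers together lay between 0.92 and 59.7 CPM (counts scaled to 1e+06 in all) over classes and animals, and the 7 endothelial markers between 0 and 43.3 CPM. The 8 osteoclast markers together had 213 and 542 CPM in class 4 and at most 103 CPM in any animal of the other 7 classes. Ctsk itself was present in every class, at 517 and 381 CPM in class 4 and 66.1 and 66.5 CPM in chondrocyte-like cells of animals 1 and 2. In summed counts, fewer cells with a transcript and less RNA per cell cannot be told apart.

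On the GRCm38 (mm10) build the receptor genes lie on chromosome 8 (Fgfr1, 25513654 to 25575718, plus strand), chromosome 7 (Fgfr2, 130162451 to 133123350, minus strand) and chromosome 5 (Fgfr3, 33721674 to 33737068, plus strand). The annotated span of Fgfr2 runs past many neighbouring genes, while the RefSeq start used for its promoter lies at the low end of that span. Fgf2 lies on chromosome 3 from 37348346 to 37410108 and overlaps Nudt6 on the opposite strand from 37404910 to 37410108. The strand setting of the counting is not known, so reads of Fgf2 and Nudt6 in that stretch cannot be told apart. Spry1 is also on chromosome 3 (37639947 to 37644598), Fgf9 and Spry2 are on chromosome 14 (58070547 to 58112720 and 105891947 to 105896819), Fgf18 on chromosome 11 (33117430 to 33147400), Dusp6 on chromosome 10 (99263231 to 99267489) and Etv5 on chromosome 16 (22381309 to 22439719).

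The promoters of Fgfr2 and Fgfr3 are shown, the receptor pair with the highest Pearson r over sums of class and animal (0.81). Fgfr1 had no promoter entry, so no other receptor pair could be shown. Each sequence is the 250 bases before a RefSeq start (GRCm38.p6), written 5′ to 3′ on the gene's strand, with matches to the GC box GGGCGG on either strand in capitals. The Fgfr3 window is chr5:33721474-33721723 and the Fgfr2 window is chr7:130266809-130267058.
Fgfr3: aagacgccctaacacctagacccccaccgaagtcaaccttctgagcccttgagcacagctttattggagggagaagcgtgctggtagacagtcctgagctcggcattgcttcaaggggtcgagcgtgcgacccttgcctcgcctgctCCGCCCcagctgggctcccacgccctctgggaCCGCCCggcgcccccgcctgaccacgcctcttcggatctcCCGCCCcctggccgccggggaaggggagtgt
Fgfr2: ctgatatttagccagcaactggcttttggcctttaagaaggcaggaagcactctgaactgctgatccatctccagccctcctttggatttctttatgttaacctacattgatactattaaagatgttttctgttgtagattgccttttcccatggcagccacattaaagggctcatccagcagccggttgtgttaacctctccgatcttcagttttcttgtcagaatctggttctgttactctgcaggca
The Fgfr3 window held 3 matches and had a GC content of 66.8%, while the Fgfr2 window held 0 and had 44% GC. A second RefSeq start of Fgfr3 had 2 overlapping matches. A GC box match was present in 32.7% of 32851 RefSeq promoter windows of this length and also in those of Fgf2, Fgf18, Spry1 and Etv5. Another 5 motifs were searched on both strands: the CRE TGACGT (6.47% of windows) matched only Fgf9, and the ETS motif CCGGAA (12.0%), the SOX motif ACAATG (10.7%), the RUNX motif TGTGGT (14.0%) and the TATA motif TATAAA (12.4%) matched none of the members with an entry. A match is a description of letters and not a binding site.

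Fgfr1, the receptor seen in most cells, was present in every class and was lowest in pericyte and smooth muscle-like cells. Its level in animals 1 and 2 was 236 and 237 CPM in chondrocyte-like cells, 326 and 139 CPM in articular and synovial-like cells and 255 and 197 CPM in class 3. It was 137 and 119 CPM in periosteal fibroblast-like cells, 126 and 114 CPM in class 4, 111 and 94.6 CPM in tendon and ligament-like cells and 29.7 and 1.94 CPM in pericyte and smooth muscle-like cells. The 3 highest classes overlapped with each other, and neither tendon and ligament-like nor pericyte and smooth muscle-like cells overlapped with the class above them. Osteoblast-like cells spanned 288 and 64.3 CPM, so their place in the order is not fixed. At least 5 counts of Fgfr1 were found in 66.7% of osteoblast-like, 48.9% of articular and synovial-like, 44.6% of chondrocyte-like and 5.6% of pericyte and smooth muscle-like cells.

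Fgfr2, a receptor known from the osteoblast lineage, was highest in class 4. That class also had the highest mean log2 ratio of marrow stromal markers (1.7) and the highest summed level of osteoclast markers. The part of either in the Fgfr2 level was not tested. Fgfr2 stood at 234 and 188 CPM in class 4, 154 and 159 CPM in articular and synovial-like cells, 122 and 95.2 CPM in class 3 and 105 and 76.6 CPM in chondrocyte-like cells. The values of class 4 lay above those of articular and synovial-like cells in both animals, and class 3 and chondrocyte-like cells overlapped. Much lower values were found in periosteal fibroblast-like cells, at 24.3 and 9.85 CPM, and in tendon and ligament-like cells, at 26.5 and 5.66 CPM. A single well held 159 of the 184 Fgfr2 counts of periosteal fibroblast-like cells in animal 1. Osteoblast-like cells had 57.7 and 0 CPM. Fgfr2 was detected in 54.0% of class 4 cells (95% interval 40.9% to 66.6%), in 31.8% of chondrocyte-like cells (24.6% to 39.7%) and in 2.6% of periosteal fibroblast-like cells (0.7% to 6.6%). The shares in animals 1 and 2 were 62.5% and 39.1% in class 4 and 37.5% and 26.0% in chondrocyte-like cells. The intervals pool the cells of both animals and leave out the spread between animals.

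Fgfr3 was found mostly in chondrocyte-like cells, the largest class (157 of 653 cells), which held 66.7% of all its counts. It stood at 74.2 and 66.5 CPM in chondrocyte-like cells, 73.9 and 13.8 CPM in class 4, 41.0 and 3.67 CPM in articular and synovial-like cells and 23.1 and 9.43 CPM in class 3. The animals differed widely in class 4 and in articular and synovial-like cells. In articular and synovial-like cells 1 well per animal held all counts. In chondrocyte-like cells 1 well held 324 of the 744 counts of animal 1, and without the top well of each animal the level was 44.9 and 60.5 CPM. In class 4 it was then 48.1 and 0.33 CPM. Periosteal fibroblast-like cells had 0.66 and 0 CPM and tendon and ligament-like cells had 0 counts in both animals. With at least 5 counts, Fgfr3 was seen in 21.7% of chondrocyte-like cells (15.5% to 28.9%), 14.3% of class 4 cells (6.7% to 25.4%) and 0 of 151 periosteal fibroblast-like cells. In animal 1 the share was 16.2% of chondrocyte-like and 20% of class 4 cells, and in animal 2 it was 27.3% and 4.35%. The 0 of 151 allows a share of cells with at least 5 counts of up to 1.99% (exact upper bound 2.41%), and 2.65% of these cells had at least 1 count. The 0 of 58 tendon and ligament-like cells, none of which had any count, allows up to 5.17% (exact upper bound 6.16%). The median depth was 121886 counts in chondrocyte-like cells, 105782 in periosteal fibroblast-like cells and 84543 in tendon and ligament-like cells. After thinning every cell to 20000 counts, Fgfr3 was seen in 13.5% of chondrocyte-like cells and in 0 cells of both other classes.

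**Figure D1:**
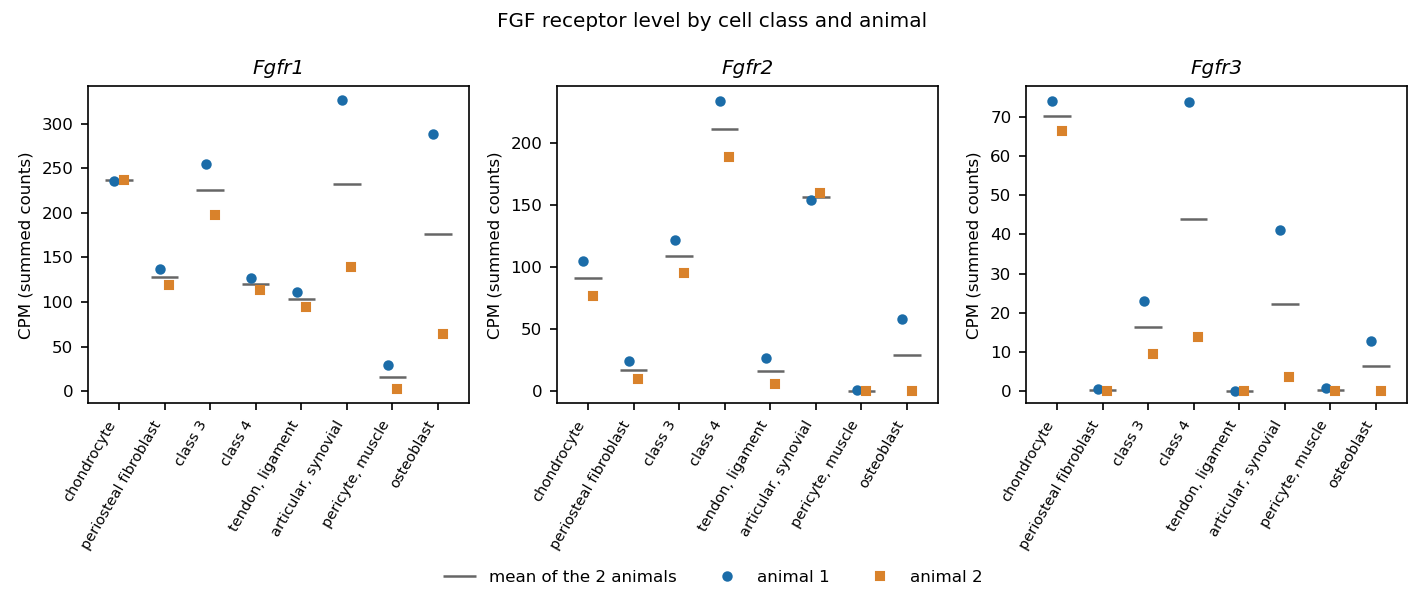
CPM of Fgfr1, Fgfr2 and Fgfr3 (y axis, one scale per gene) in the 8 cell classes (x axis), with circles for animal 1, squares for animal 2 and a bar for their mean. Fgfr2 peaks in class 4 at 234 and 188 CPM, Fgfr3 in chondrocyte-like cells at 74.2 and 66.5 CPM, and both are low in periosteal fibroblast-like and tendon and ligament-like cells.

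In the tests of each class against the mean of the other classes, 1 of the 60 pairs of a member and a class passed an adjusted p of 0.05. All 10 members passed the filter on low counts. The called pair was Fgfr3 in chondrocyte-like cells, with 79.8 and 73.4 TMM-scaled CPM (76.6 ± 4.55, SD, n = 2) against 26.1 and 5.31 (15.7 ± 14.7, SD, n = 2) for the mean of the other classes. The edgeR log2 fold change was 5.68 (SE 0.84, adjusted p = 0.0430, higher in 2 of 2 animals). The fold is taken against a mean of log values that includes tendon and ligament-like cells, where Fgfr3 had no count. Periosteal fibroblast-like cells, at 0.63 and 0 TMM-scaled CPM, enter that mean as well. The size of the fold therefore depends on classes at or near 0 and is no bound. In chondrocyte-like cells 0.751% of the 13586 genes tested were called, and the median log2 fold change of all genes was 0.34. The call was lost when the well with most counts was left out (adjusted p = 0.0748) and when chondrocyte-like cells were set against the summed counts of all other cells of the same animal (log2 fold change 2.80, SE 0.69, adjusted p = 0.295), a comparison with 1 residual degree of freedom.

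None of the members passed by edgeR in the other 5 classes or between chondrocyte-like and periosteal fibroblast-like cells. The background of called genes there was 1.02% for chondrocyte-like against periosteal fibroblast-like cells, 0.795% for periosteal fibroblast-like, 0.287% for articular and synovial-like, 0.236% for tendon and ligament-like, 0.0957% for class 4 and 0.0147% for class 3. Several receptor differences missed the threshold. Fgfr2 in class 4 had 202 ± 35.9 against 77.2 ± 9.26 TMM-scaled CPM (SD, n = 2; edgeR log2 fold change 1.95, SE 0.38, adjusted p = 0.154). In periosteal fibroblast-like cells it had 16.4 ± 9.67 against 114 ± 14.5 (-2.51, SE 0.53, adjusted p = 0.1004), and in tendon and ligament-like cells 17.2 ± 15.97 against 114 ± 13.2 (-2.52, SE 0.54, adjusted p = 0.132). These 3 pairs passed with DESeq2's Wald test (adjusted p = 0.00181, 1.27e-05 and 7.11e-05) and on thinned counts, and under no other setting tried. With classes by highest marker score the Fgfr2 log2 fold change was -0.58 in periosteal fibroblast-like cells (edgeR adjusted p = 0.971) and -0.12 in tendon and ligament-like cells (edgeR adjusted p = 1). At clustering resolution 0.5 it was -1.61 and -1.51 (edgeR adjusted p = 0.611 and 0.632). No class with the label of class 4 was tested in either of these groupings. An unnamed class takes its number from the clustering, so the same cells may carry another label, which was not checked. Fgfr3 in class 4 had 42.5 ± 41.7 against 22.5 ± 7.25 TMM-scaled CPM (SD, n = 2; edgeR log2 fold change 3.75, SE 0.83, adjusted p = 0.210), and in tendon and ligament-like cells it had 0 and 0 against 42.03 and 19.98 (edgeR adjusted p = 0.162). Between chondrocyte-like and periosteal fibroblast-like cells, Fgfr3 had 79.8 and 73.4 against 0.63 and 0 TMM-scaled CPM (edgeR adjusted p = 0.0721) and Fgfr2 112.8 and 84.5 against 23.3 and 9.61 (log2 fold change 2.68, SE 0.60, adjusted p = 0.116). With DESeq2's Wald test Fgfr3 passed in class 4 (adjusted p = 0.018), tendon and ligament-like cells (0.00176) and periosteal fibroblast-like cells (0.000707). By that test it also passed between chondrocyte-like and periosteal fibroblast-like cells (3.57e-08), as did Fgfr2 (0.00108). Fgfr2 between these classes also passed on thinned counts, and these Fgfr3 pairs passed under no other setting tried. Fgfr2 in articular and synovial-like cells had an edgeR log2 fold change of 1.38 (SE 0.40, adjusted p = 0.237). It passed with DESeq2's Wald test alone (adjusted p = 0.0328). The share of all genes called by the Wald test or on thinned counts is not given here, so these calls have no background beside them.

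**Figure D2:**
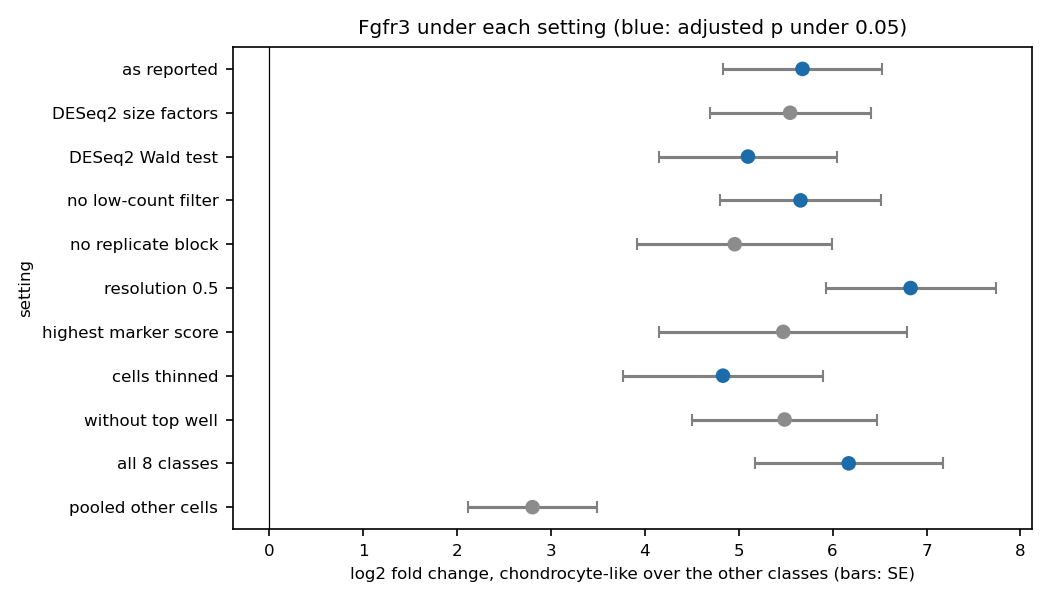
Log2 fold change of Fgfr3 in chondrocyte-like cells over the other classes (x axis, bars are SE) under the reported and the 10 other tested settings (y axis), blue where the adjusted p is under 0.05. All values lie above 0, and 5 of the 10 alternatives pass the threshold.

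Receptor use, the share of each receptor in the summed counts of the 3, differed in make-up between classes. In class 4 Fgfr2 held 53.9% and 59.6% in animals 1 and 2, Fgfr1 29.1% and 36.02%, and Fgfr3 17.0% and 4.37%. Class 4 was the only one of the 8 in which Fgfr2 exceeded Fgfr1 in both animals. In chondrocyte-like cells Fgfr1 held 56.8% and 62.4%, Fgfr2 25.3% and 20.1%, and Fgfr3 17.9% and 17.5%. Fgfr1 held 84.6% and 92.4% in periosteal fibroblast-like cells and 80.8% and 94.4% in tendon and ligament-like cells. Articular and synovial-like cells differed between the animals, with Fgfr2 at 29.5% and 52.8% and Fgfr1 at 62.6% and 46.0%. No test of these shares was made.

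Per kilobase of the longest coding transcript, the order within a class was the same. In class 4 the level was 49.0 CPM per kb for Fgfr2, 23.8 for Fgfr1 and 10.3 for Fgfr3. In chondrocyte-like cells it was 46.9 CPM per kb for Fgfr1, 21.0 for Fgfr2 and 16.6 for Fgfr3. Whether the counting favours transcript ends is not given in the sources used here, so levels per length are approximate.

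**Figure D3:**
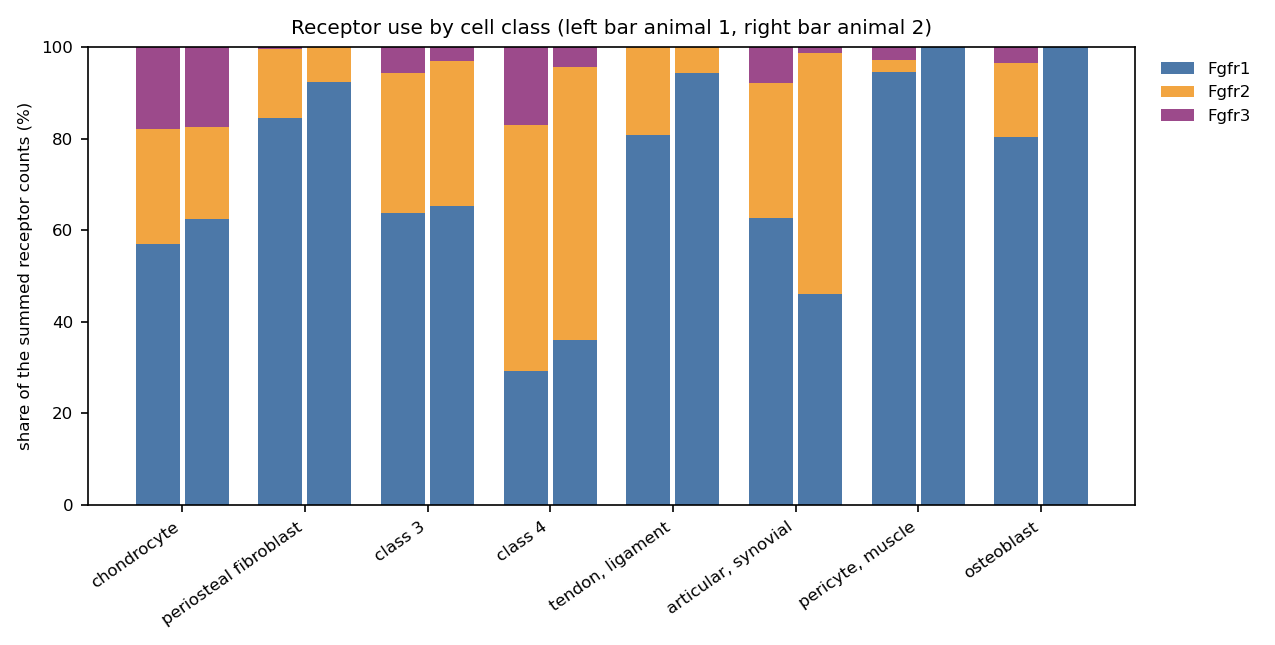
Share of Fgfr1, Fgfr2 and Fgfr3 in their summed counts (y axis, %) by cell class (x axis), left bar animal 1 and right bar animal 2. Fgfr2 makes up 53.9% and 59.6% in class 4, and Fgfr1 at least 80.8% in both periosteal fibroblast-like and tendon and ligament-like cells.

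Of all 653 cells, 52.1% had at least 5 counts of some receptor and 313 had none. A single receptor was detected in 248 cells, a pair in 83 and all 3 in 9. Some receptor was detected in 75.6% of articular and synovial-like, 71.4% of class 4 and 67.5% of chondrocyte-like cells, but in 30.5% of periosteal fibroblast-like, 31.0% of tendon and ligament-like and 5.56% of pericyte and smooth muscle-like cells. Of the 34 chondrocyte-like cells with Fgfr3, 17 also had Fgfr1 and 11 also had Fgfr2. Of the 43 periosteal fibroblast-like cells with Fgfr1, 42 had neither other receptor. After thinning, 37.1% of 650 cells had some receptor, so these counts depend on depth, and a receptor that was not counted is not shown to be absent.

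**Figure D4:**
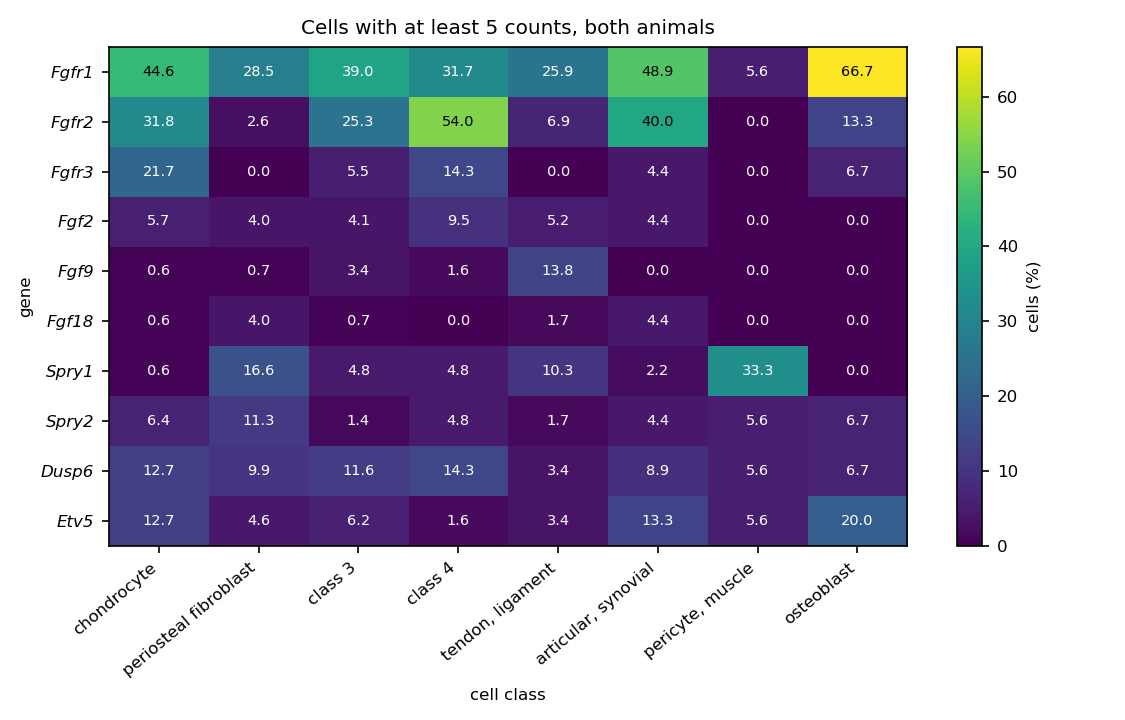
Share of cells with at least 5 counts (colour and printed number, %) for each member (rows) and cell class (columns), both animals together. Fgfr2 reaches 54.0% in class 4 and Fgfr3 21.7% in chondrocyte-like cells, while Fgf9 and Fgf18 stay at or below 13.8% everywhere.

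The ligands were rare: at least 5 counts were found in 32 cells for Fgf2, 16 for Fgf9 and 11 for Fgf18. Fgf2, a broadly acting ligand without a classical signal peptide, had 30.5 and 24.1 CPM in chondrocyte-like cells, 26.1 and 22.1 CPM in class 4, 16.7 and 25.6 CPM in tendon and ligament-like cells and 5.95 and 4.77 CPM in periosteal fibroblast-like cells. It had no count in the 18 pericyte and smooth muscle-like or the 15 osteoblast-like cells. Fgf9 had 18.4 and 52.8 CPM in tendon and ligament-like cells and 17.8 and 12.8 CPM in class 3, and at most 6.44 CPM in each animal elsewhere. It was detected in 13.8% of tendon and ligament-like cells (6.1% to 25.4%). Against the other classes this gave 37.5 ± 25.1 against 4.94 ± 1.40 TMM-scaled CPM (SD, n = 2), which did not pass (edgeR adjusted p = 0.261). Fgf18, which acts on chondrocytes and osteogenic cells, had 35.1 and 14.9 CPM in articular and synovial-like cells and 4.36 and 19.5 CPM in periosteal fibroblast-like cells, and no count in class 4. In articular and synovial-like cells these Fgf18 levels came from 1 detected cell per animal, with 46 of 47 and 57 of 57 counts. Between 9.93% and 15.3% of each ligand's counts came from 1 well.

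Among the feedback genes, Spry1 stood at 145 and 27.2 CPM in pericyte and smooth muscle-like cells, 77.2 and 35.8 CPM in periosteal fibroblast-like cells and 59.1 and 13.6 CPM in tendon and ligament-like cells. Class 4 had 11.96 and 71.1 CPM, with 224 of the 232 counts of animal 2 in 1 well. In chondrocyte-like cells it had 0 and 3.71 CPM, below both animals of periosteal fibroblast-like cells. It was detected in 33.3% of pericyte and smooth muscle-like, 16.6% of periosteal fibroblast-like and 0.6% of chondrocyte-like cells. Against the other classes, Spry1 in chondrocyte-like cells had 2.05 ± 2.89 against 31.4 ± 2.58 TMM-scaled CPM (SD, n = 2), with an edgeR adjusted p of 0.551 and a DESeq2 adjusted p of 0.0198. Between chondrocyte-like and periosteal fibroblast-like cells, Spry1 had an edgeR adjusted p of 0.574 and a DESeq2 Wald adjusted p of 0.01065.

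Spry2 had 33.3 and 20.5 CPM in periosteal fibroblast-like cells and 15.95 and 5.21 CPM in chondrocyte-like cells. In class 4 its animals were at 0.19 and 35.6 CPM, and neighbouring classes in its order overlapped throughout. Etv5 had 14.9 and 22.0 CPM in articular and synovial-like cells, 20.04 and 11.7 CPM in chondrocyte-like cells, and 2.32 and 0 CPM in class 4, where Fgfr2 was highest. Neither gene passed the test in any class (edgeR adjusted p at least 0.606).

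Dusp6, the ERK phosphatase, had a mean between 30.0 and 38.5 CPM in 6 of the 8 classes but differed between the animals. Over all kept cells it had 20.7 CPM in animal 1 and 47.8 CPM in animal 2, and it was detected in 6.92% and 14.0% of cells. It was higher in animal 2 in 6 of 8 classes, with 18.2 and 58.7 CPM in chondrocyte-like, 20.8 and 49.4 CPM in class 3 and 0 and 59.96 CPM in articular and synovial-like cells. By plate quadrant the detected share ran between 1.16% and 12.2% in animal 1 and between 9.52% and 20.7% in animal 2. The receptors went the other way: Fgfr1, Fgfr2 and Fgfr3 were each higher in animal 1 in 7 of 8 classes. With 1 animal per plate no test of this difference is possible.

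The 18 genes of the dissociation and immediate-early list, which includes heat shock genes such as Dnajb1 and Hspa1a, also varied over classes and animals. Together they had 12217 and 15890 CPM in chondrocyte-like, 14949 and 13079 CPM in articular and synovial-like, 8080 and 11373 CPM in class 3 and 6016 and 6204 CPM in periosteal fibroblast-like cells. In chondrocyte-like cells 5 of the 18 were higher and 0 lower by edgeR, led by Dnajb1, Hspa1a and Zfp36 (log2 fold changes 3.06, 1.54 and 1.48), with a median log2 fold change of 0.98 over the list against 0.34 over all genes. Their part in the levels of Dusp6, Etv5 and the Sproutys was not tested.

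**Figure D5:**
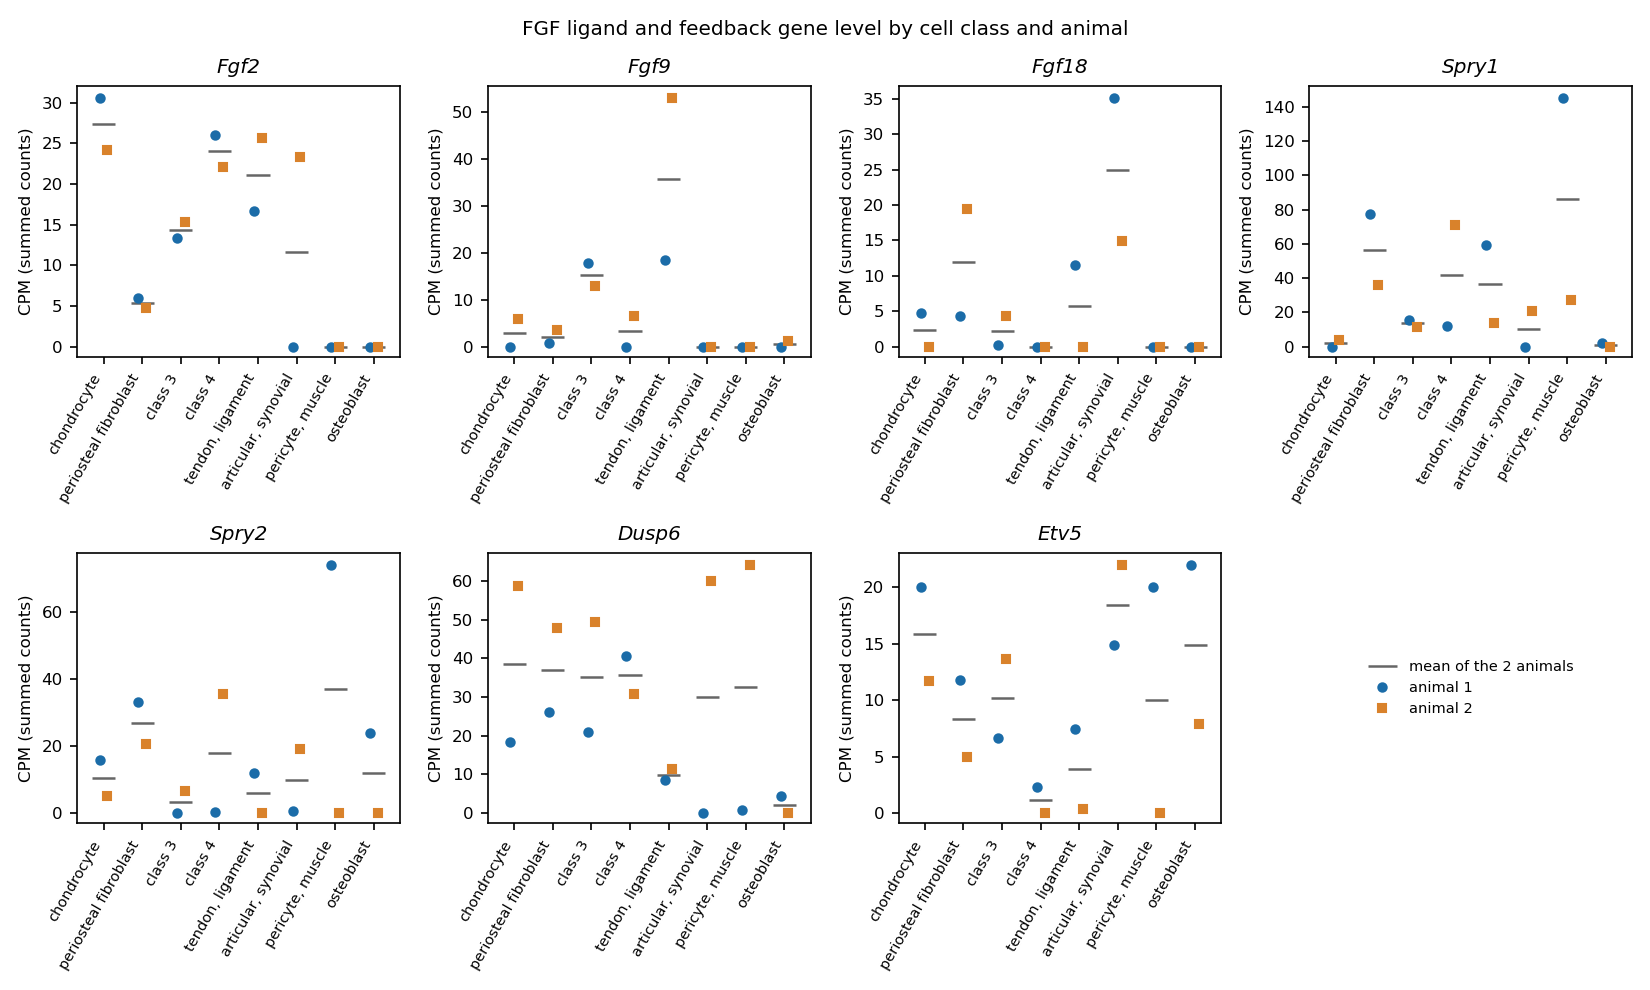
CPM of the 3 ligands and 4 feedback genes (y axis, one scale per gene) by cell class (x axis), with circles for animal 1, squares for animal 2 and a bar for their mean. Fgf9 is highest in tendon and ligament-like cells (18.4 and 52.8 CPM), Spry1 is near 0 in chondrocyte-like cells, and Dusp6 is higher in animal 2 in 6 of 8 classes.

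Feedback genes were also set beside receptor detection within a class. With every cell thinned, some feedback gene had a count in 28.6% and 24.5% of chondrocyte-like cells with a receptor, against 21.7% and 28.6% of those without, in animals 1 and 2. In periosteal fibroblast-like cells the shares were 57.1% and 32% with a receptor and 29.4% and 30.2% without. The animals did not show 1 direction in chondrocyte-like cells, and the difference in periosteal fibroblast-like cells was large in animal 1 alone, where cells with a receptor were also deeper (median 120086 against 81157 counts before thinning). In articular and synovial-like cells the shares were 11.1% and 48% with a receptor and 0% and 28.6% without, where those without a receptor numbered 4 and 7 cells. In class 4 they were 6.67% and 40% with a receptor and 20% and 12.5% without. The thinned share was higher with a receptor in both animals in 2 of the 6 classes and the summed CPM of the 4 genes in 3 of 6, and no test of these differences was made.

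Of the other FGF pathway genes, the heparan sulfate proteoglycans Sdc4 and Gpc3 were the ones that passed a class test. Syndecan-4 (Sdc4) rose in chondrocyte-like cells, with 361 and 596 against 142 and 161 TMM-scaled CPM (edgeR log2 fold change 2.04, SE 0.20, adjusted p = 0.00829), and in articular and synovial-like cells (1.60, adjusted p = 0.0302). It fell in periosteal fibroblast-like cells, with 49.0 and 54.6 against 204 and 269 TMM-scaled CPM (-1.78, adjusted p = 0.0273). Glypican-3 (Gpc3) went the opposite way, with 683 and 511 against 134 and 149 TMM-scaled CPM in periosteal fibroblast-like cells (2.81, SE 0.26, adjusted p = 0.00401). It fell in chondrocyte-like cells (-2.38, adjusted p = 0.0349) and in articular and synovial-like cells (-3.07, adjusted p = 0.0302). These were 2 of the 14 tested genes among other receptors and coreceptors, and the list's median log2 fold change in chondrocyte-like cells was -0.02. No gene passed among the 7 tested other ligands, the 12 tested other feedback and ERK target genes or the 20 signal relay genes in any of the 7 comparisons. Fgfrl1, a receptor-like protein without a kinase domain, had 118 and 83.5 CPM in chondrocyte-like and 10.4 and 3.94 CPM in periosteal fibroblast-like cells, and Fgf7, a ligand of the Fgfr2 splice form of epithelia, had 55.4 and 42.3 CPM in periosteal fibroblast-like cells and 0 and 0.09 CPM in chondrocyte-like cells. Both were picked out after their values were seen, and neither passed.

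Over the 12 sums of class and animal, Fgfr2 and Fgfr3 had a Pearson r of 0.81 on log2(CPM + 1), Fgfr1 and Fgfr3 of 0.70 and Fgfr1 and Fgfr2 of 0.51. The sums share cells of the same libraries, so these are descriptions. Among 7657 genes with a mean of at least 10 CPM, the 5 most like Fgfr1 were Morf4l2 (r = 0.93), Trmt61b, Hmgn2, Foxa3 and Irf2bp1. For Fgfr2 they were Trp53rka (0.94), Foxc1 (0.93), which is one of the markers that made the classes, Nedd9, Cadm1 and Itm2a. For Fgfr3 they were Eef1b2 (0.97), Rps3a3, Rpl36a, Gm43712 and Skiv2l2, of which Rps3a3 and Rpl36a have near-identical copies that the counting could split.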

How the data were processed

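Single CTSK-mGFP+ femur cells of 2 animals were analysed from the authors' deposited table of whole-number read counts per gene and well, with 24866 genes and 658 wells. Build mm10 and CASAVA are named in the submitters' processing notes. The aligner, counter, strand setting, annotation, any collapsing of duplicates and any molecular identifiers were not given in the sources used here, and a count may therefore not stand for 1 molecule. Exact Clopper-Pearson intervals (95%) pool the cells of both animals. Only counting error enters them and the limit for a 0, which was set at 3 counts, and the spread between animals is left out.

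The analysis kept wells with 500 or more detected genes and no more than 20% mitochondrial counts, which dropped 5 wells (26.7% to 94.2% mitochondrial). The plates share 276 well names, and 0 columns were identical. No doublet caller was run on these sorted wells. Cells were clustered (leidenalg 0.10.2, igraph 0.11.9, Python 3.11.15; 20 components, 15 neighbours, resolution 1) on 115 marker genes from 16 lists, none of which holds a gene of this set. A class took the name of the list with the highest mean log2 ratio. That list also needed at least 3 raised markers and the most genes among the top-ranked markers of the class. A condition on median depth had to be met as well. The marker-score alternative was restricted to 7 lists after the data were seen. Members, lists and tests were chosen with earlier results of these data known.

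For the 6 classes with 10 or more cells in each animal, a sum of counts was made for every class in every animal. A class was set against the log-scale mean of its fellow classes, and chondrocyte-like against periosteal fibroblast-like cells, in 1 edgeR 4.0.16 quasi-likelihood fit (R 4.3.3). The fit used TMM scaling, filterByExpr and the animal as a block, since the classes come from the same animals, with 5 residual degrees of freedom. P-values were adjusted (Benjamini-Hochberg, threshold 0.05) over 13586 genes outside the marker lists. The SE of a log2 fold change is its size over the square root of the F statistic. CPM beside a test are TMM-scaled, and all other CPM use the class total. The fit was tested on simulated data. The block removes a shift between animals that all classes share. With 1 litter and 2 animals, p-values measure only how far class differences varied between these animals. DESeq2 1.42.0, other scalings, filters and classes served as alternatives. Genes named by the rule were all 10 members, the genes of the fixed FGF lists past the threshold (up to 3 per list and class), and for each receptor the 5 genes most correlated with it. Positions are from GENCODE models on GRCm38 and promoters from RefSeq (GRCm38.p6).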

Additional observations from a re-analysis of the deposited data

How the results depend on the processing

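The number of called pairs of a member and a class was 1 of 60 as reported. It was 0 with DESeq2 size factors, without the replicate block, with classes by highest marker score, without the top well of each member and against pooled other cells. It was 4 with cells thinned and 9 with DESeq2's Wald test. Between chondrocyte-like and periosteal fibroblast-like cells it was 0 as reported, 1 with cells thinned and 3 with DESeq2's Wald test. The share of all genes called under these alternatives is not given here. The higher counts are therefore not read as a result about the members. The log2 fold change of Fgfr3 in chondrocyte-like cells was 5.68 as reported and missed the threshold with DESeq2 size factors (5.55, adjusted p = 0.0553), without the replicate block (4.96, adjusted p = 0.0901), by highest marker score (5.47, adjusted p = 0.145), without the top well (5.49, adjusted p = 0.0748) and against pooled other cells (2.80, adjusted p = 0.295). It passed under the other 5 of 10 tested alternatives, and adjusted p ran between 8.11e-06 and 0.295. Pooling leaves 1 residual degree of freedom, and the causes of the other changes were not tested. Pooled other cells and the fit of all 8 classes were chosen after seeing the data. All 8 classes added calls of Fgfr1 and Fgfr2 in pericyte and smooth muscle-like cells, and resolution 0.5 added one of Fgf2 there. With 1 animal alone, a value with no test, the Fgfr3 fold was 3.47 or 5.02. Alternative fold changes were compared only for chosen pairs of Fgfr1, Fgfr2, Fgfr3, Fgf9 or Spry1 with a class or class contrast. None of these 104 changed sign, and the other pairs were not checked.

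Detected shares fell with cells thinned: to 26.7% for Fgfr1 in articular and synovial-like cells (48.9% as reported), 38.1% for Fgfr2 in class 4 (54.0%), 13.5% for Fgfr3 in chondrocyte-like cells (21.7%), 10% for Spry1 in periosteal fibroblast-like cells (16.6%) and 5.17% for Fgf9 in tendon and ligament-like cells (13.8%). At a minimum of 1 count Fgfr3 was seen in 29.3%. In 1 animal alone the shares were 46.9% to 53.8%, 39.1% to 62.5%, 16.2% to 27.3%, 10.3% to 23.3% and 9.09% to 20% in that order of genes. The Fgfr1 share of receptor use in periosteal fibroblast-like cells was 88.5% as reported, 94.8% without the top well and 84.6% to 92.4% by animal. The Fgfr3 share in chondrocyte-like cells was 17.7%, 15.2% by mean of per-cell CPM, 15.03% without the top well and 17.5% to 17.9% by animal. By animal, Fgfr2 in class 4 held 53.9% to 59.6% and Fgfr1 in tendon and ligament-like cells 80.8% to 94.4%. The precision is limited by 2 animals, by few wells holding most counts of the ligands, and by classes that changed with the clustering. Of 653 cells, 432 kept their class name at resolution 0.5 and 370 by highest marker score. The numbers of unnamed classes are set anew at resolution 0.5, so the 432 compares labels and not groupings. The marker score gives only list names, so the 146 cells of class 3 and 63 of class 4 could not keep theirs.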
